A study of Mus musculus with 18 samples.

Results

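The genes described here mark cadherin adhesion and the epithelial-mesenchymal transition (EMT): Cdh1, Cdh2, Epcam, Vim, Snai1, Snai2, Zeb1, Zeb2, Twist1 and Fn1. They were taken by their symbol from the count tables, where all 10 were found among the 53672 genes listed. All 10 were also among the 18791 genes that passed a filter on low counts, and Cdh2, one of the lowest, passed on libraries of both mutant lines, untreated ones included. The cells were mouse E14TG2a embryonic stem cells (ESCs) with conditional (lox) alleles of Hdac1 and Hdac2, and every line also stably expressed a Flag-tagged HDAC1 construct that had been inserted with the piggyBac transposon. The construct was wild type in the HDAC1-WT line and carried a single amino acid substitution in the other lines, named HDAC1-E63R and HDAC1-Y48E after it. Each line was sequenced untreated, with the endogenous Hdac1 and Hdac2 still in place beside the construct, and after 4-hydroxytamoxifen (OHT), which removes the endogenous genes. The labels give 5 days for both arms and an OHT dose of 1 µM, while the study's methods describe a shorter exposure followed by culture without OHT. This gave 6 groups of 3 libraries, with between 9019615 and 11454638 counts on genes per library. Each construct is represented by 1 line, so the construct and any other property of its line cannot be told apart. The study describes the replicates as biological, and the labels do not say whether they were separate cultures, so p-values measure the spread between these libraries. The promoter that drives the constructs is not given in the sources used here.

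E-cadherin, encoded by Cdh1, holds epithelial cells and ESCs together through calcium-dependent contacts that are linked to actin by catenins, and Epcam is another surface molecule of both cell types. In EMT, cells lose these contacts and take up N-cadherin (Cdh2), the intermediate filament vimentin (Vim) and the matrix protein fibronectin (Fn1). The transcription factors SNAI1, SNAI2, ZEB1, ZEB2 and TWIST1 drive this switch, and those of the Snail and Zeb families repress Cdh1 through E-box motifs, recruiting histone deacetylase complexes among other corepressors.

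Matches to the E-box motif of the repressors among these genes are shown for the 2 genes in which they were found. Whether any repressor binds these matches was not tested. RefSeq (GRCm38.p6) gave promoter windows of 300 bases, from 250 before to 50 after a start, for 5 of the 10 genes (Vim, Zeb2, Snai1, Twist1 and Epcam), with 8 windows in all. Both strands were searched for CAGGTG, which reads CACCTG on the other strand. A match was held by 20.2% of all 32851 promoter windows and by 22.6% of the 27025 genes that had a window. Epcam had 2 matches, CACCTG at -187 and CAGGTG at -19 from the start, and Snai1 had 1, CACCTG at -126. The windows of Vim, Zeb2 and Twist1 had none, which says only that these letters are not there. The 250 bases before the start follow, on the plus strand for both genes, at chr17:87635729-87635978 for Epcam and chr2:167537945-167538194 for Snai1, with the matches in capitals.
Epcam: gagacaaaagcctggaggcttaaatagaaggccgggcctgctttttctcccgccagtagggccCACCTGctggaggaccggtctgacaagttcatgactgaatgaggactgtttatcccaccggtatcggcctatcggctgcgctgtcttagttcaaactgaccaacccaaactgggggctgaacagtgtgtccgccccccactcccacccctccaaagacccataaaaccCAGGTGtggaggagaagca
Snai1: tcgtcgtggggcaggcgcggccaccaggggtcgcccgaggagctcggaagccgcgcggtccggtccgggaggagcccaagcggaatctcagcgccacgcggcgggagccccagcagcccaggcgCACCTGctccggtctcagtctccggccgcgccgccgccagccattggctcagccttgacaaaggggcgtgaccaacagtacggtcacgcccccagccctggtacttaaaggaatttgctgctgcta

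Per kilobase of exon, the epithelial genes and fibronectin stood far above the transcription factors. In untreated HDAC1-WT cells the level was 122 ± 0.57 RPKM (reads per kilobase of exon scaled to library size, SD, n = 3) for Epcam, 97.5 ± 1.40 for Cdh1 and 94.5 ± 7.48 for Fn1. Vim followed at 17.4 ± 1.31 RPKM, and the transcription factors lay lower, with Twist1 at 7.62, Snai1 at 3.60, Snai2 at 1.46 and Zeb1 at 1.20 RPKM. Cdh2 and Zeb2 were close to the limit of detection, at 0.0806 and 0.0495 RPKM. Across the 6 groups the mean of Epcam varied 1.28-fold between the lowest and the highest, that of Vim 1.24-fold and that of Cdh1 1.72-fold, against 3.75-fold for Fn1. The other values in this text are TMM-scaled counts relative to library size (CPM), which compare libraries and not genes.

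**Figure D1:**
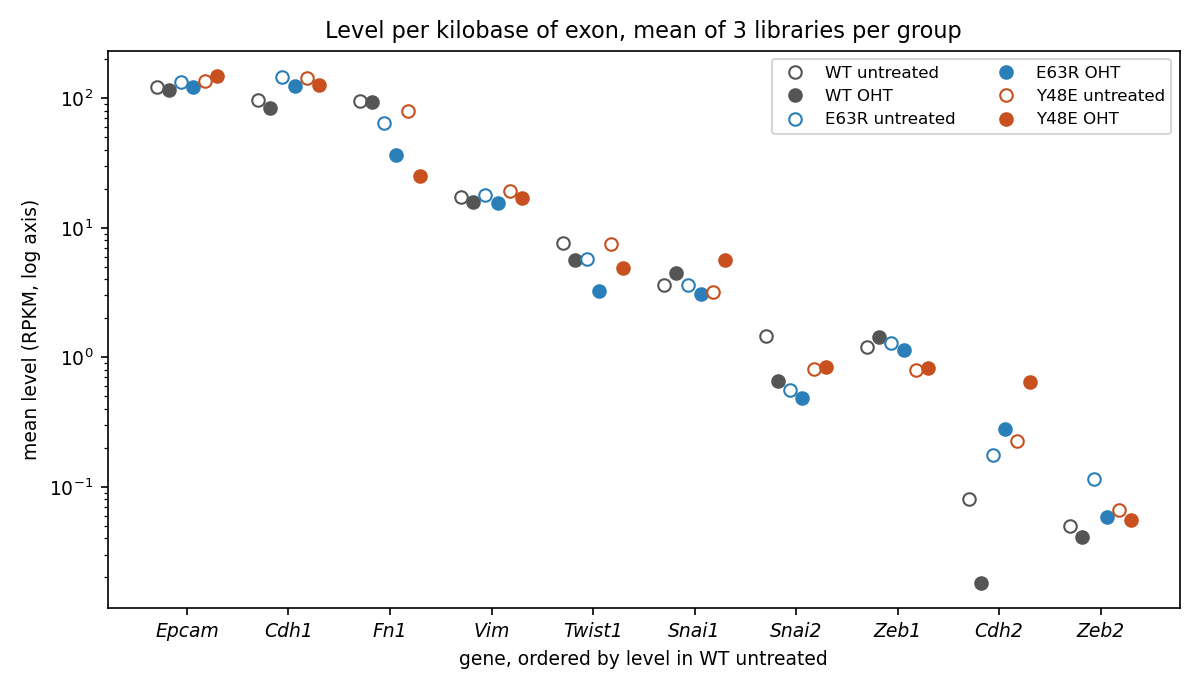
Mean RPKM of each gene in the 6 groups on a log axis, 3 libraries per group, with untreated groups as open and OHT groups as filled points. Epcam, Cdh1 and Fn1 lie highest in untreated HDAC1-WT cells, the points of Fn1 spread downwards in the OHT groups of the mutant lines, and Cdh2 spreads upwards from the lowest levels.

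Replicate 3 of the untreated HDAC1-E63R cells stood apart from its group, and the fold changes of the 10 genes that rest on it are therefore given with and without it. In this library 1735 genes lay over 2-fold from the mean of the other replicates, against 29 to 354 in the other libraries. It lay outside the range of replicates 1 and 2 for all 10 genes. Fn1 was at 303 CPM there against a mean of 985 CPM in replicates 1 and 2, Epcam at 392 against 242, Twist1 at 13.3 against 7.47 and Zeb1 at 8.01 against 15.7. No other untreated library of any line had an Fn1 level below 887 CPM. Since replicate 3 was singled out by its values, p-values without it measure only the spread between the libraries that were kept. The spread of each gene was estimated over all 18 libraries, so replicate 3 also enters the SEs and p-values of the other lines.

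**Figure D2:**
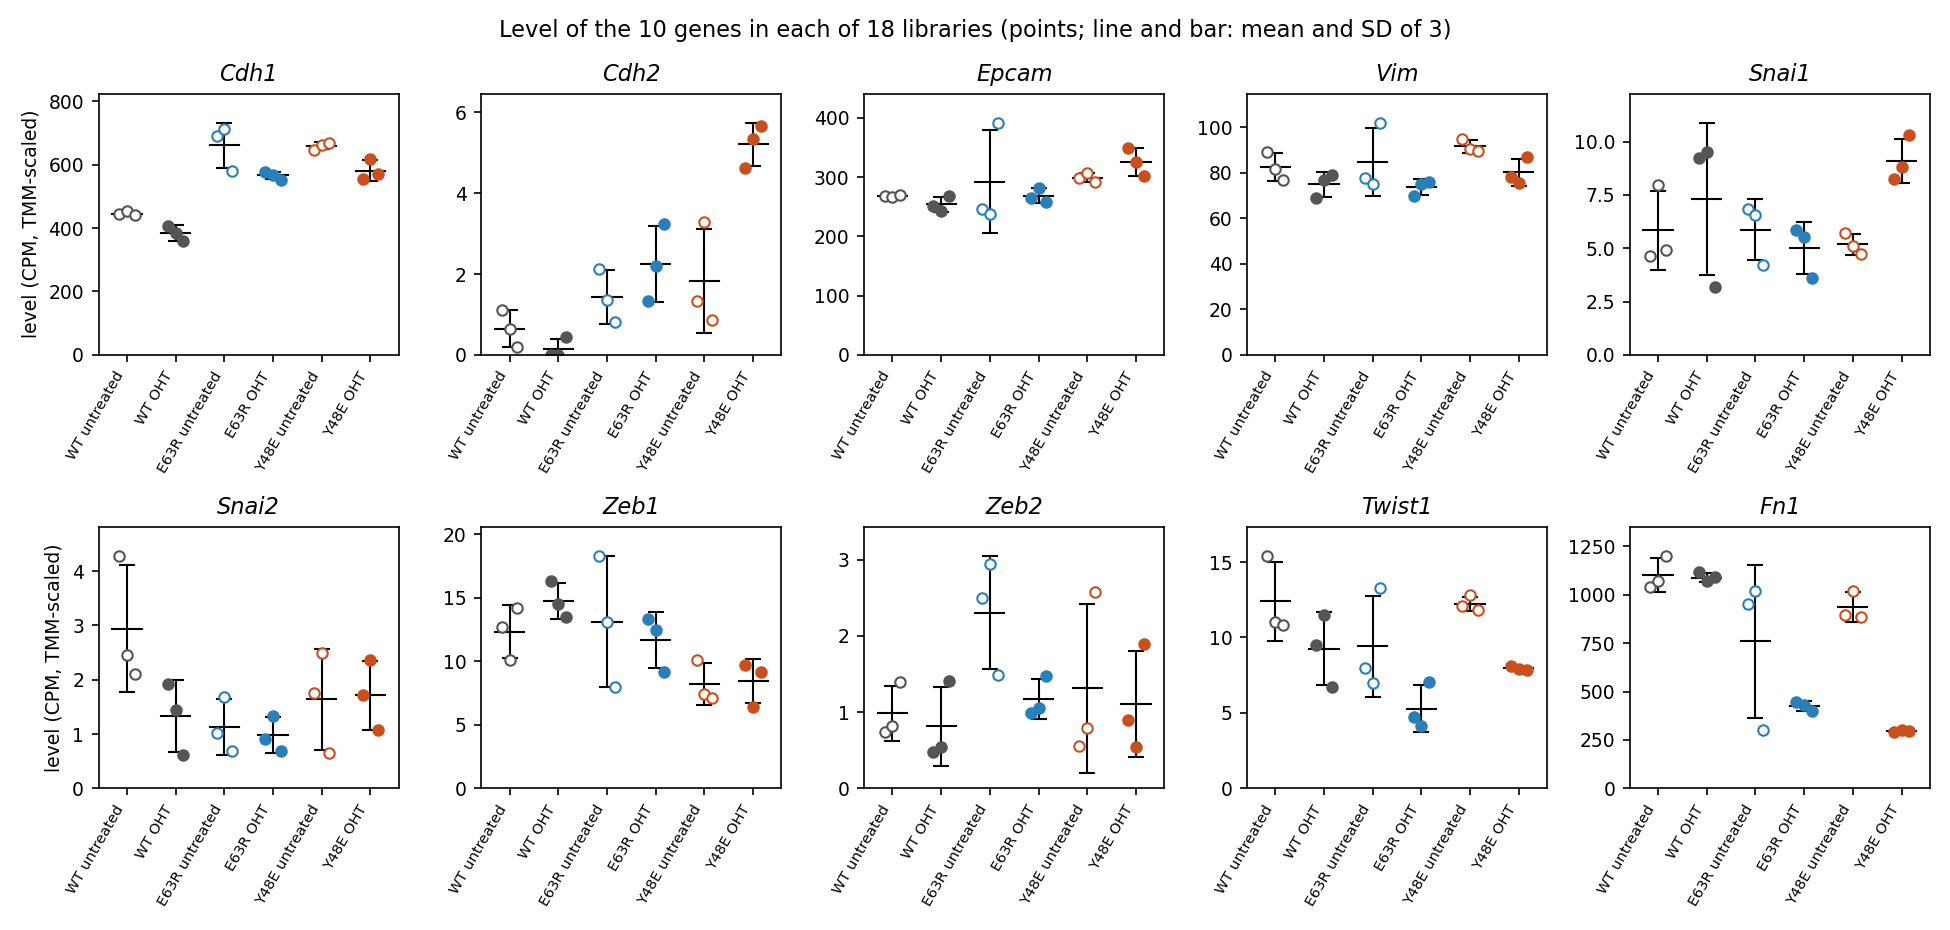
CPM of each gene in each of the 18 libraries, with the mean and SD of 3 libraries per group (open points untreated, filled points OHT, y axes from 0). In HDAC1-Y48E the 3 Fn1 points after OHT lie between 289 and 299 CPM, below every other library of the series, and the rightmost point of untreated HDAC1-E63R, replicate 3, lies outside the range of replicates 1 and 2 in every panel.

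OHT was compared with no treatment in each line to ask what the loss of endogenous Hdac1 and Hdac2 does where the construct alone remains. A gene was called when its adjusted p was under 0.01 and its change over 2-fold. In HDAC1-WT 0 of the 10 genes were called by edgeR, as by DESeq2, with 2 (Cdh1 and Cdh2) at an unadjusted p under 0.05, where 0.0532% of all tested genes were called. In HDAC1-E63R 0 were called by either tool, with 3 (Cdh1, Twist1 and Fn1) at an unadjusted p under 0.05 and 5.91% of all genes called. Without untreated replicate 3, edgeR called 1 there, Fn1. In HDAC1-Y48E 1 was called, Fn1, which fell, by both tools, against 16.6% of all genes, with 5.84% called lower. There 4 (Cdh2, Snai1, Twist1 and Fn1) had an unadjusted p under 0.05. Such values were common among the 18791 tested genes. By edgeR p, Cdh2 (0.0437) ranked 1704 in HDAC1-WT and Cdh1 (0.0222) ranked 5494 in HDAC1-E63R. In HDAC1-Y48E, Cdh2 (0.0331) ranked 8845, so these counts do not set the 10 genes apart in the mutant lines. The median log2 fold change of the 10 genes was -0.18 in HDAC1-WT, -0.22 in HDAC1-E63R and -0.07 in HDAC1-Y48E, beside 0.00, 0.03 and 0.05 over all tested genes.

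Fibronectin, a matrix glycoprotein bound by integrins, was the gene that moved. Fn1 (chr1:71585520-71653200, minus strand) was at 1040, 1070 and 1200 CPM in untreated HDAC1-WT cells and at 1120, 1070 and 1090 CPM after OHT. These groups overlapped, and the log2 fold change was -0.02 ± 0.24 (SE, adjusted p = 1). In HDAC1-Y48E it went from 897, 1020 and 887 CPM to 289, 299 and 296 CPM. All 3 OHT libraries lay below all 3 untreated ones, at 0.315 of the untreated level (log2 fold change -1.67 ± 0.25, adjusted p = 1.1e-05). The 95% interval of the fold ran from 0.221 to 0.448. This OHT effect differed from that in HDAC1-WT by -1.65 ± 0.34 on the log2 scale (adjusted p = 0.00122). These SEs carry the spread of Fn1 over all libraries, untreated HDAC1-E63R replicate 3 included. An edgeR fit of the HDAC1-Y48E libraries alone gave -1.68 after OHT (adjusted p = 1.93e-22).

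In HDAC1-E63R, Fn1 was at 950, 1020 and 303 CPM untreated and at 447, 430 and 397 CPM after OHT. The low untreated value is that of replicate 3, and because of it the groups overlapped. With all libraries the log2 fold change was -0.84 ± 0.24 (adjusted p = 0.0138), which was not called. Without replicate 3 it was -1.22 ± 0.06 (adjusted p = 1.09e-19), which was called, at 0.430 of the untreated level. The difference of this OHT effect from that in HDAC1-WT was -0.82 ± 0.34 (adjusted p = 0.17) with and -1.20 ± 0.09 (adjusted p = 2.96e-14) without that library. Between the mutant lines, the effect in HDAC1-Y48E minus that in HDAC1-E63R was -0.83 ± 0.34 (adjusted p = 0.176) with it and -0.46 ± 0.09 (adjusted p = 0.000184) without it. Leaving out this library, singled out by its values, took the SE in HDAC1-E63R from 0.24 to 0.06. The p-values without it are therefore not comparable with those of fits that hold it. After OHT the libraries of HDAC1-E63R, at 397 CPM or more, and of HDAC1-Y48E, at 299 CPM or less, did not overlap. Some 2.50% of the exon bases of Fn1 are shared with Apol7d on the opposite strand, and whether the counting used strand is not stated in the sources used here.

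**Figure D3:**
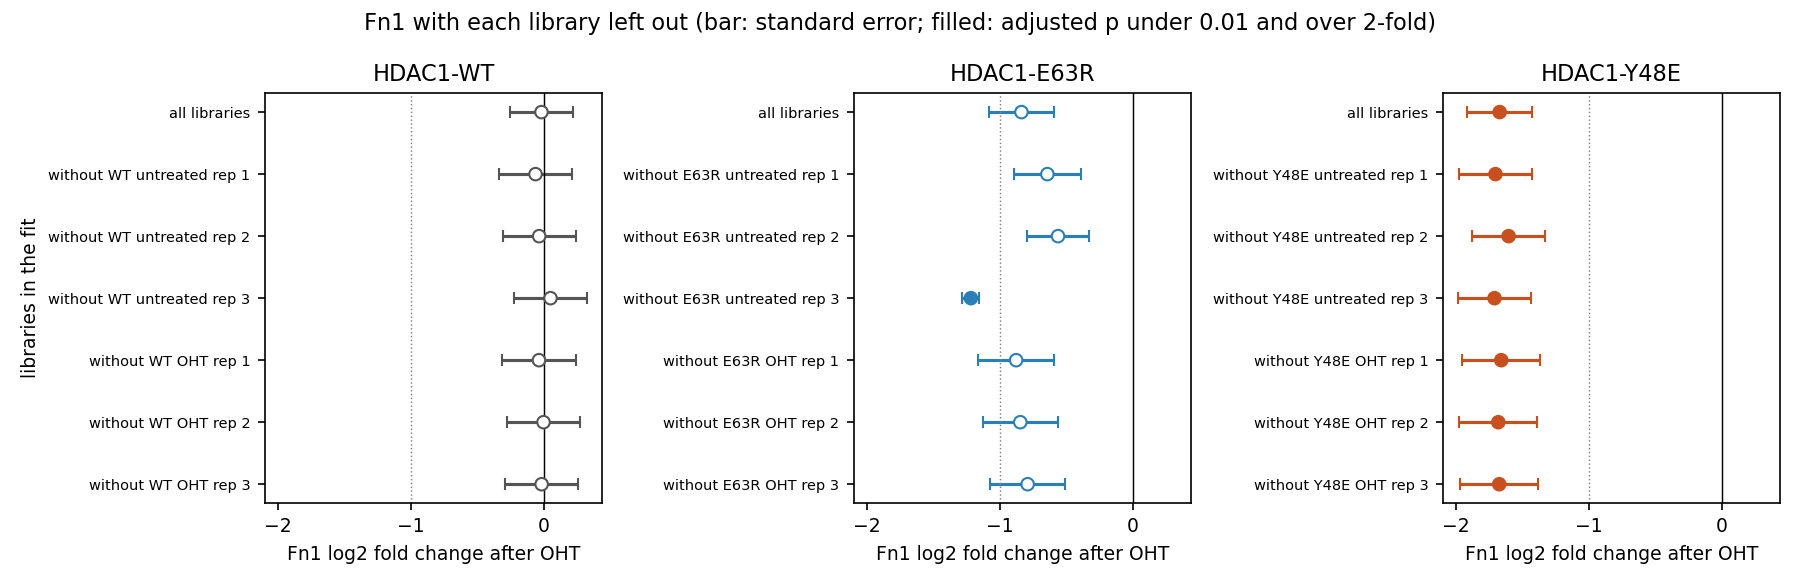
Log2 fold change of Fn1 after OHT in each line, with all libraries and with each library of that line left out (bars, standard error; dotted line, a 2-fold decrease). The values of HDAC1-Y48E stay between -1.71 and -1.60, those of HDAC1-WT between -0.06 and 0.05, and that of HDAC1-E63R reaches -1.22 without untreated replicate 3.

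E-cadherin was retained in all groups, at 360 CPM or more in every library. Cdh1 (chr8:106603351-106670246, plus strand) was at 444, 453 and 441 CPM in untreated HDAC1-WT cells and at 408, 386 and 360 CPM after OHT. In HDAC1-E63R it was at 692, 713 and 579 CPM and then at 577, 569 and 553 CPM. In HDAC1-Y48E it was at 647, 663 and 669 CPM and then at 556, 619 and 571 CPM. In each line all 3 OHT libraries lay below the 3 untreated ones, by a small margin. The log2 fold changes were -0.21, -0.22 and -0.18 (SE 0.09 each, adjusted p = 0.426, 0.076 and 0.111), none of which passed the test. Without untreated replicate 3 the value in HDAC1-E63R was -0.31 ± 0.06 (adjusted p = 6.77e-05), past the p limit and short of 2-fold. The OHT effect differed from that in HDAC1-WT by -0.01 in HDAC1-E63R, with a 95% interval from -0.28 to 0.26 (-0.10, from -0.26 to 0.06, without that replicate), and by 0.03 in HDAC1-Y48E, from -0.24 to 0.30.

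N-cadherin was scarce in every group. The raw counts of Cdh2 were 12, 7 and 2 in untreated HDAC1-WT libraries and 0, 0 and 5 after OHT, 23, 12 and 7 and then 16, 23 and 33 in HDAC1-E63R, and 12, 29 and 8 and then 46, 59 and 63 in HDAC1-Y48E. A count of 0 allows up to 3 counts, or between 0.262 and 0.333 CPM over the libraries, counting error only. In HDAC1-Y48E the 3 OHT libraries, at 4.62, 5.35 and 5.67 CPM, lay above the untreated ones, at 1.32, 3.30 and 0.862 CPM, and above all other libraries of the series. The log2 fold change was 1.51 ± 0.66 (adjusted p = 0.0704), which did not pass the test, with a 95% interval of the fold from 1.10 to 7.41. In HDAC1-E63R the groups overlapped (0.63 ± 0.68, adjusted p = 0.543, and 0.35 ± 0.69 without untreated replicate 3), and in HDAC1-WT they did too (-2.03 ± 0.95, adjusted p = 0.482), where the OHT libraries held 5 counts in all. The difference of the OHT effect of HDAC1-Y48E from that of HDAC1-WT was 3.54 ± 1.16 (adjusted p = 0.0307), short of the limit, and DESeq2 put it past the limit at 3.67 ± 1.15 (adjusted p = 0.00906). Without replicate 3 of the OHT-treated HDAC1-WT cells, which held all 5 counts, edgeR called it too, but no fold can be given against a group at 0.

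Epcam and Vim, which mark opposite ends of the transition, varied little. Epcam (chr17:87635979-87651129, plus strand) was at 268, 266 and 269 CPM in untreated HDAC1-WT cells, and the log2 fold changes after OHT were -0.08 ± 0.13, -0.12 ± 0.13 and 0.12 ± 0.13 in HDAC1-WT, HDAC1-E63R and HDAC1-Y48E (adjusted p = 0.931, 0.55 and 0.472). Without untreated replicate 3 the value in HDAC1-E63R was 0.15 ± 0.07 (adjusted p = 0.111). The 95% intervals with all libraries left room for folds between 0.760 and 1.32 in the 3 lines. Vim was at 89.0, 81.8 and 76.6 CPM in untreated HDAC1-WT cells, and its log2 fold changes were -0.14, -0.20 and -0.19 (SE 0.12 each, adjusted p = 0.782, 0.22 and 0.188). Its value without that replicate was -0.05 ± 0.10 in HDAC1-E63R. In HDAC1-Y48E the Vim libraries after OHT, at 78.0, 75.5 and 86.8 CPM, lay below those without OHT, at 94.8, 90.3 and 89.6 CPM, so the mesenchymal filament gene did not stand higher there.

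None of the 5 transcription factors passed the test after OHT in any line, with the spread of each gene taken over all 18 libraries. In a fit of HDAC1-Y48E alone, the genes called among the 10 were Cdh2 and Fn1. Snai1 (chr2:167538195-167542814, plus strand), a zinc finger repressor of Cdh1, was at 5.72, 5.12 and 4.74 CPM in untreated HDAC1-Y48E cells and at 8.23, 8.80 and 10.3 CPM after OHT. The groups did not overlap, and the log2 fold change was 0.81 ± 0.35 (adjusted p = 0.0633). In HDAC1-WT the Snai1 libraries after OHT were spread from 3.18 to 9.52 CPM (0.32 ± 0.34), and in HDAC1-E63R the value was -0.23 ± 0.35, or -0.42 ± 0.35 without untreated replicate 3. The effect in HDAC1-Y48E minus that in HDAC1-E63R was 1.04 ± 0.49 for Snai1 (adjusted p = 0.257), or 1.22 ± 0.47 without that replicate (adjusted p = 0.0789), and neither passed the test.

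Twist1, a basic helix-loop-helix factor, had negative values in all 3 lines. In HDAC1-Y48E it was at 12.1, 12.8 and 11.8 CPM untreated and at 8.13, 7.89 and 7.83 CPM after OHT, without overlap (log2 fold change -0.62 ± 0.27, adjusted p = 0.0632). In HDAC1-E63R it was at 7.95, 7 and 13.3 CPM and then at 4.72, 4.10 and 7.04 CPM, where replicate 3 was the highest in both groups. The value was -0.83 ± 0.28 (adjusted p = 0.0305) with and -0.51 ± 0.28 (adjusted p = 0.185) without untreated replicate 3. In HDAC1-WT it was -0.42 ± 0.26 (adjusted p = 0.654).

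The Zeb factors and Snai2, a second Snail family repressor, were low and their intervals wide. Zeb1 had log2 fold changes of 0.26 ± 0.25, -0.18 ± 0.26 and 0.04 ± 0.27 in HDAC1-WT, HDAC1-E63R and HDAC1-Y48E, on levels between 6.44 and 18.3 CPM. Zeb2 never exceeded 2.94 CPM, and its value in HDAC1-E63R was -0.98 ± 0.68 (adjusted p = 0.319), with the OHT libraries at 0.993, 1.05 and 1.47 CPM below the untreated ones at 2.50, 2.94 and 1.49 CPM. The Zeb2 values of the other lines were -0.27 ± 0.71 and -0.24 ± 0.70. Snai2 was at 4.28, 2.45 and 2.1 CPM in untreated HDAC1-WT cells and at 1.93, 1.45 and 0.618 CPM after OHT, below them all (-1.14 ± 0.59, adjusted p = 0.547), and its values were -0.21 ± 0.63 and 0.07 ± 0.60 in HDAC1-E63R and HDAC1-Y48E. Without untreated replicate 3 the HDAC1-E63R values were -0.43 ± 0.24 for Zeb1, -1.21 ± 0.77 for Zeb2 and -0.46 ± 0.71 for Snai2. For Snai2 and Zeb2 the 95% intervals of each line reached beyond a 2-fold change, so a change of that size was not excluded at these counts. Small shares of the exon bases of Zeb1 (1.93%, with Gm10125) and Zeb2 (3.27%, with Zeb2os) are shared with genes on the opposite strand.

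**Figure D4:**
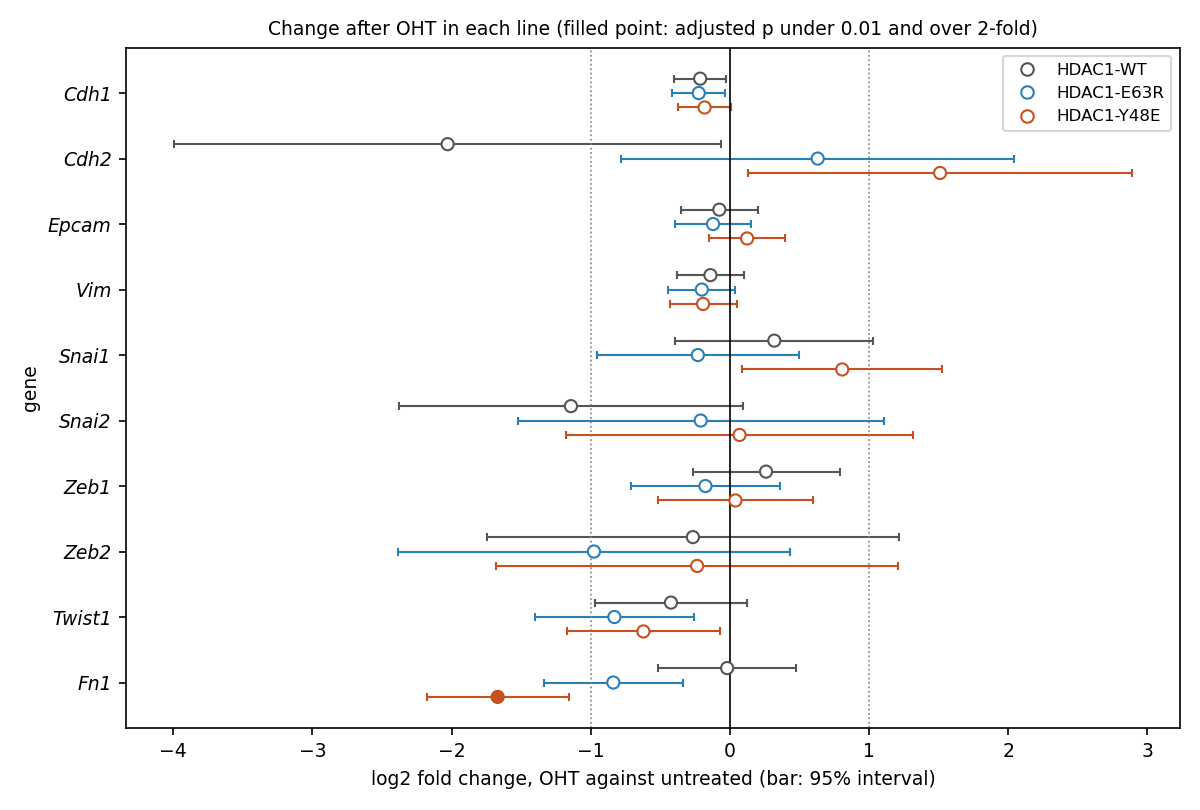
Log2 fold change after OHT of each gene in the 3 lines with its 95% interval, dotted lines at a 2-fold change in either direction. The filled point, Fn1 in HDAC1-Y48E at -1.67, is the one that was called, Cdh1, Epcam and Vim have short intervals near 0, and those of Cdh2, Snai2 and Zeb2 are long.

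The groups of OHT and untreated libraries did not overlap for 2 of the 10 genes in HDAC1-WT (Cdh1 and Snai2), 2 in HDAC1-E63R (Cdh1 and Zeb2) and 6 in HDAC1-Y48E (Cdh1, Cdh2, Vim, Snai1, Twist1 and Fn1). Over all tested genes the shares were 19.2%, 36.9% and 59.4%, and 10 genes are too few to tell these counts from those shares. The count in HDAC1-E63R includes untreated replicate 3, and it was not taken without that library. The OHT effects of the mutant lines were also tested against each other and against HDAC1-WT. Of the 10 genes, 0 were called in the difference of HDAC1-E63R from HDAC1-WT, where 1.68% of all genes were, 1 (Fn1) in that of HDAC1-Y48E from HDAC1-WT, where 8.62% were and 3.97% with a lower effect, and 0 in that of HDAC1-Y48E from HDAC1-E63R, where 1.31% were. DESeq2 called 0, 2 (Cdh2 and Fn1) and 0, and 2 genes had an unadjusted p under 0.05 in each of the 3 tests. By edgeR p, the later of these 2 genes ranked 3147, 3493 and 3420 among the 18791 tested genes, so such values were common. These 3 comparisons are not independent: those against HDAC1-WT share its libraries, and that between the mutant lines uses the libraries of both.

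The lines differed before OHT was added, and the gene with the firmest difference was Cdh1. Untreated HDAC1-E63R cells had 1.48 times the Cdh1 level of untreated HDAC1-WT cells (log2 difference 0.57 ± 0.09, adjusted p = 6.55e-05), and untreated HDAC1-Y48E cells also 1.48 times (0.57 ± 0.09, adjusted p = 9.33e-05). All libraries of both mutant lines, from 579 CPM upwards, lay above all HDAC1-WT libraries, and without replicate 3 the value of HDAC1-E63R was 0.66 ± 0.06 (adjusted p = 3.04e-12). Both values passed the p limit and not the 2-fold limit, so that 0 of the 10 genes were called in either comparison, where 7.65% and 5.57% of all genes were. DESeq2 called 0 as well. By the p limit alone, Cdh1 was the 1 gene that passed in each, beside 16.9% and 12.2% of all genes.

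For Fn1 the untreated mutant lines lay below HDAC1-WT in every library, but the log2 differences of -0.54 ± 0.24 for HDAC1-E63R (adjusted p = 0.0998) and -0.24 ± 0.24 for HDAC1-Y48E (adjusted p = 0.543) did not pass. Without untreated replicate 3 the former was -0.16 ± 0.06 (adjusted p = 0.06). Snai2 was at -1.37 ± 0.61 in HDAC1-E63R (adjusted p = 0.0992), or -1.12 ± 0.70 without that replicate, and Zeb1 at -0.59 ± 0.26 in HDAC1-Y48E (adjusted p = 0.127). Together with Cdh1 and Fn1 these were the genes at an unadjusted p under 0.05, 3 in HDAC1-E63R and 2 in HDAC1-Y48E. By edgeR p, Fn1 ranked 6531 in HDAC1-E63R and Zeb1 ranked 5567 in HDAC1-Y48E among the 18791 tested genes, so such values were common. The libraries did not overlap for 4 of 10 genes in each comparison, beside 35.2% and 40.2% of all genes.

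Since the lines already differed, the OHT-treated mutant lines were also set against the OHT-treated HDAC1-WT line. Here Fn1 was called in both, at 0.390 of the HDAC1-WT level in HDAC1-E63R (log2 difference -1.36 ± 0.24, adjusted p = 0.00019) and 0.270 in HDAC1-Y48E (-1.89 ± 0.25, adjusted p = 2.05e-06). The untreated HDAC1-E63R library that stood apart is not among the libraries set against each other in that comparison. Cdh2 was called in both as well (adjusted p = 0.0021 and 6.57e-05), with counts of 16 to 33 and 46 to 63 against 0, 0 and 5. Thus 2 of 10 genes were called in each, beside 9.36% and 18.2% of all genes. Cdh1 was higher at 1.47 and 1.51 times (adjusted p = 6.81e-05 and 1.48e-05), below the 2-fold limit. Zeb1 lay below HDAC1-WT in all libraries of both lines, at -0.34 ± 0.25 in HDAC1-E63R and -0.81 ± 0.26 in HDAC1-Y48E (adjusted p = 0.353 and 0.0151).

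By group mean, the order of Cdh1 ran from OHT-treated HDAC1-WT (384.6 CPM) through untreated HDAC1-WT (445.9), OHT-treated HDAC1-E63R (566.3) and HDAC1-Y48E (581.8) to untreated HDAC1-Y48E (659.9) and HDAC1-E63R (661.3). Of its 5 pairs of neighbours in this order, 3 did not overlap, and the libraries of OHT-treated HDAC1-E63R and HDAC1-Y48E overlapped, as did those of the untreated mutant lines. For Fn1 the order ran from OHT-treated HDAC1-Y48E (294.4) through OHT-treated HDAC1-E63R (424.8), untreated HDAC1-E63R (758.9) and untreated HDAC1-Y48E (935.8) to HDAC1-WT with (1089) and without OHT (1104). There 2 of 5 pairs of neighbours did not overlap, the lowest pair and untreated HDAC1-Y48E against OHT-treated HDAC1-WT. Cdh2 and Twist1 each had 1 such pair, in both cases OHT-treated HDAC1-E63R below OHT-treated HDAC1-Y48E, and for Epcam, Vim, Snai1, Snai2, Zeb1 and Zeb2 all 5 pairs of neighbours overlapped.

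Genes around the 10 were described by lists. Among 13 tested cadherins and catenins, 0 were called after OHT in HDAC1-WT and in HDAC1-E63R, and 2 rose and 1 fell in HDAC1-Y48E, where 10.8% of all genes rose and 5.84% fell. P-cadherin (Cdh3) was at 76.5, 83.9 and 83.2 CPM in untreated HDAC1-Y48E cells and at 32.3, 35.2 and 34.5 CPM after OHT, a fall of all libraries (log2 fold change -1.26 ± 0.15, adjusted p = 9.11e-07). In HDAC1-E63R Cdh3 was at -0.93 ± 0.15 (adjusted p = 0.000125), just short of 2-fold, and at -1.01 ± 0.14, called, without untreated replicate 3. Untreated, Cdh3 stood 1.19 and 1.30 log2 units above HDAC1-WT (adjusted p = 4.67e-06 and 2.02e-06) in HDAC1-E63R and HDAC1-Y48E, so that OHT brought its level close to the 26.4 to 39.5 CPM of HDAC1-WT libraries. R-cadherin (Cdh4) rose from 0.770, 1.25 and 1.18 CPM to 8.23, 9.52 and 9.54 CPM in HDAC1-Y48E (3.08 ± 0.51, adjusted p = 4.21e-05), and the alpha-catenin gene Ctnna2 rose there too (3.58 ± 0.96, adjusted p = 0.00434). The untreated libraries of Ctnna2 held 4, 4 and 2 counts, and it was called in 0 of the 6 fits that left out a library of that line (adjusted p from 0.012 to 0.0231), against 6 of 6 for Cdh3 and Cdh4. Beta-catenin (Ctnnb1), which links cadherins to the actin cytoskeleton and carries Wnt signals, was at 0.01, 0.05 and 0.10 in HDAC1-WT, HDAC1-E63R and HDAC1-Y48E, and none of these passed the test.

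Of 10 other EMT transcription factors tested, 0, 0 and 1 were called after OHT in HDAC1-WT, HDAC1-E63R and HDAC1-Y48E, beside 0.0532%, 5.91% and 16.6% of all genes. The called gene was the homeobox gene Prrx2, which rose (1.31 ± 0.22, adjusted p = 4.9e-05). Snai3, the third Snail gene, was at -0.77 ± 0.18 in HDAC1-Y48E (adjusted p = 0.00126), and untreated it was higher than HDAC1-WT in both mutant lines by 1.15 and 1.47 log2 units. Twist2 was not tested, with 13 counts at most in a library. Of 10 regulators of the epithelial state, Grhl2, a grainyhead factor that sustains Cdh1 and junction genes in epithelia, rose in both mutant lines, from 10.8, 13.8 and 14 CPM to 25.7, 25.6 and 28.5 CPM in HDAC1-E63R (1.05 ± 0.16, adjusted p = 7.3e-05) and from 21.2, 22.7 and 20.1 CPM to 47.2, 60.2 and 57.9 CPM in HDAC1-Y48E (1.37 ± 0.16, adjusted p = 4.3e-07). It was called in all 6 fits that left out a library of HDAC1-Y48E. In HDAC1-E63R the call was lost without untreated replicate 1, when it was at 0.94 (adjusted p = 0.000753), and in a fit of that line alone (1.05, adjusted p = 0.01). In untreated HDAC1-E63R it was lower than in HDAC1-WT by 1.22 log2 units (difference -1.22 ± 0.16). In HDAC1-Y48E, Grhl3 (-1.04 ± 0.13) and Elf3 (-1.03 ± 0.12) fell, just past 2-fold, and were called in 5 and 4 of the 6 fits that left out a library. In all, 1 regulator rose in HDAC1-E63R and 1 rose and 2 fell in HDAC1-Y48E, beside 4.74% of all genes that rose in the former and 10.8% and 5.84% that rose and fell in the latter. The splicing regulator Esrp1 (0.15 and 0.33) and Ovol2 (1.13 and 0.88), a repressor of EMT factors, did not pass the test in HDAC1-E63R and HDAC1-Y48E.

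Of 15 epithelial surface and junction genes, 0 were called in HDAC1-WT, 2 rose in HDAC1-E63R and 4 rose in HDAC1-Y48E, with 0 falling, beside 4.74% and 10.8% of all genes that rose in the mutant lines. Claudin 6 (Cldn6), a tight junction protein of early embryonic epithelia, rose from 70.5, 67.5 and 63.5 CPM to 245, 249 and 277 CPM in HDAC1-Y48E (1.94 ± 0.10, adjusted p = 2.97e-12), and the tricellular junction gene Marveld2 rose there by 1.69 ± 0.26. Rab25 was called in both, but in 1 of 6 fits that left out a library of HDAC1-E63R (1.12 to 1.76, adjusted p from 0.00275 to 0.0333) and in 3 of 6 for HDAC1-Y48E. The count for the list in HDAC1-E63R was 1 when a library of that line other than untreated replicate 2 was left out, and 0 in a fit of that line alone. The list medians of -0.27 and 0.17 in HDAC1-E63R and HDAC1-Y48E stood beside 0.03 and 0.05 over all genes.

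Of 22 mesenchymal and matrix genes tested, 7 rose and 0 fell in HDAC1-E63R and 10 rose and 1 fell in HDAC1-Y48E, against 0 in HDAC1-WT. The list median was 0.73 and 1.09, beside 0.03 and 0.05 over all genes, and 4.74% and 10.8% of all genes rose. This list, like the others, was chosen with earlier results of these data known, so these values are a description. Col1a1, a fibrillar collagen, rose by 2.49 ± 0.32 log2 units in HDAC1-E63R (adjusted p = 8.29e-06) and by 3.07 ± 0.32 in HDAC1-Y48E (adjusted p = 7.99e-08), where it went from 5.83, 2.16 and 3.02 CPM to 28.2, 34.5 and 30.1 CPM. Cnn1 (3.15 ± 0.54), an actin-binding protein of smooth muscle, and Cd44 (3.13 ± 0.54), the hyaluronan receptor, rose in HDAC1-Y48E, where the matrix protease gene Mmp14 fell (-1.26 ± 0.21). Nt5e was called in HDAC1-E63R on untreated counts of 2, 2 and 0 against 28, 42 and 14, and in 0 of 6 fits that left out a library of that line. The count of genes that rose in HDAC1-E63R was 6 without untreated replicate 3, 5 without OHT-treated replicate 2, 4 without untreated replicate 1, OHT-treated replicate 1 or OHT-treated replicate 3, and 3 in a fit of that line alone. In HDAC1-Y48E the count was 8 to 10 with a library left out. Col1a1 was called in all 6 of these fits in either mutant line. Fn1 fell, then, in the line in which 10 of the 22 genes of this mixed mesenchymal and matrix list rose and 1 fell.

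The fibroblast markers among these genes moved in part. The summed level of 8 fibroblast markers was 40.9 to 43.4 CPM in untreated and 95.2 to 105 CPM in OHT-treated HDAC1-Y48E libraries, 27.8 to 40.9 and 60.6 to 68.7 CPM in HDAC1-E63R, and 43.4 to 49.6 and 62.2 to 66.1 CPM in HDAC1-WT. Of the 8 markers 4 were tested, and Col1a1 and Thy1 rose in both mutant lines, with and without untreated HDAC1-E63R replicate 3. The other tested markers, Col1a2 and Pdgfrb, were not called with all libraries. Of the 4 values 3 were positive in each mutant line, and the lowest was -0.51 in HDAC1-E63R and -0.57 in HDAC1-Y48E. Col3a1, Dcn, Lum and Postn were too low to be tested, and Dcn was at 0 in all 3 OHT-treated HDAC1-Y48E libraries. Markers of the embryonic stem cell moved too: of 6 markers, 0 were called in HDAC1-WT and HDAC1-E63R, and Pou5f1 (-1.52), Nanog (-1.29) and Esrrb (-1.64) fell in HDAC1-Y48E. The summed level of the 6 markers was 3000 to 3030 CPM in untreated and 1310 to 1420 CPM in OHT-treated HDAC1-Y48E libraries. It was 2580 to 3410 and 2300 to 2390 CPM in HDAC1-E63R, and 3650 to 3770 and 3820 to 4320 CPM in HDAC1-WT. Of 6 trophoblast markers 2 rose in HDAC1-E63R and 3 in HDAC1-Y48E, of 6 primitive endoderm markers 1 (Dab2) rose in each, of 3 tested primitive streak markers 0 were called in either, and of 4 tested neural markers 1 (Nes, also a mesenchymal list gene) rose and 2 fell in HDAC1-Y48E. Over all genes 4.74% rose in HDAC1-E63R, and 10.8% rose and 5.84% fell in HDAC1-Y48E. Untreated, the summed trophoblast level was 53.6 to 79.1 CPM in HDAC1-E63R, 62.9 to 75.7 in HDAC1-Y48E and 199 to 215 in HDAC1-WT. After OHT it was 149 to 156, 90.9 to 99.3 and 213 to 246 CPM, so both mutant lines stayed below HDAC1-WT. Without untreated replicate 3, Dab2 was not called in HDAC1-E63R (0.85 ± 0.27, adjusted p = 0.0151) and 1 neural marker fell there. The part of these markers in the values of Fn1 and the other genes was not tested, and in bulk RNA fewer cells of a type and less RNA per cell cannot be told apart.

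Of 15 genes of the TGF-beta pathway, a classical inducer of EMT, 0 were called in HDAC1-WT, 1 rose in HDAC1-E63R, and 2 rose and 1 fell in HDAC1-Y48E, beside 0.0532%, 5.91% and 16.6% of all genes called. The ligand gene Tgfb1 rose in both mutant lines, from 17.9, 19.3 and 24.5 CPM to 49.3, 50.6 and 49.8 CPM in HDAC1-E63R (1.28 ± 0.17, adjusted p = 8.65e-06) and from 23.8, 19.4 and 12.9 CPM to 77.5, 90.0 and 77.4 CPM in HDAC1-Y48E (2.13 ± 0.17, adjusted p = 1.64e-09). The receptor gene Tgfbr2 rose (1.69 ± 0.36) and Ltbp3 (-1.47 ± 0.19), which encodes a latent TGF-beta binding protein, fell in HDAC1-Y48E. Tgfb2 was at 1.98 ± 0.81 in HDAC1-Y48E (adjusted p = 0.0513), on at most 31 counts, and Tgfb3 did not pass in any line.

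**Figure D5:**
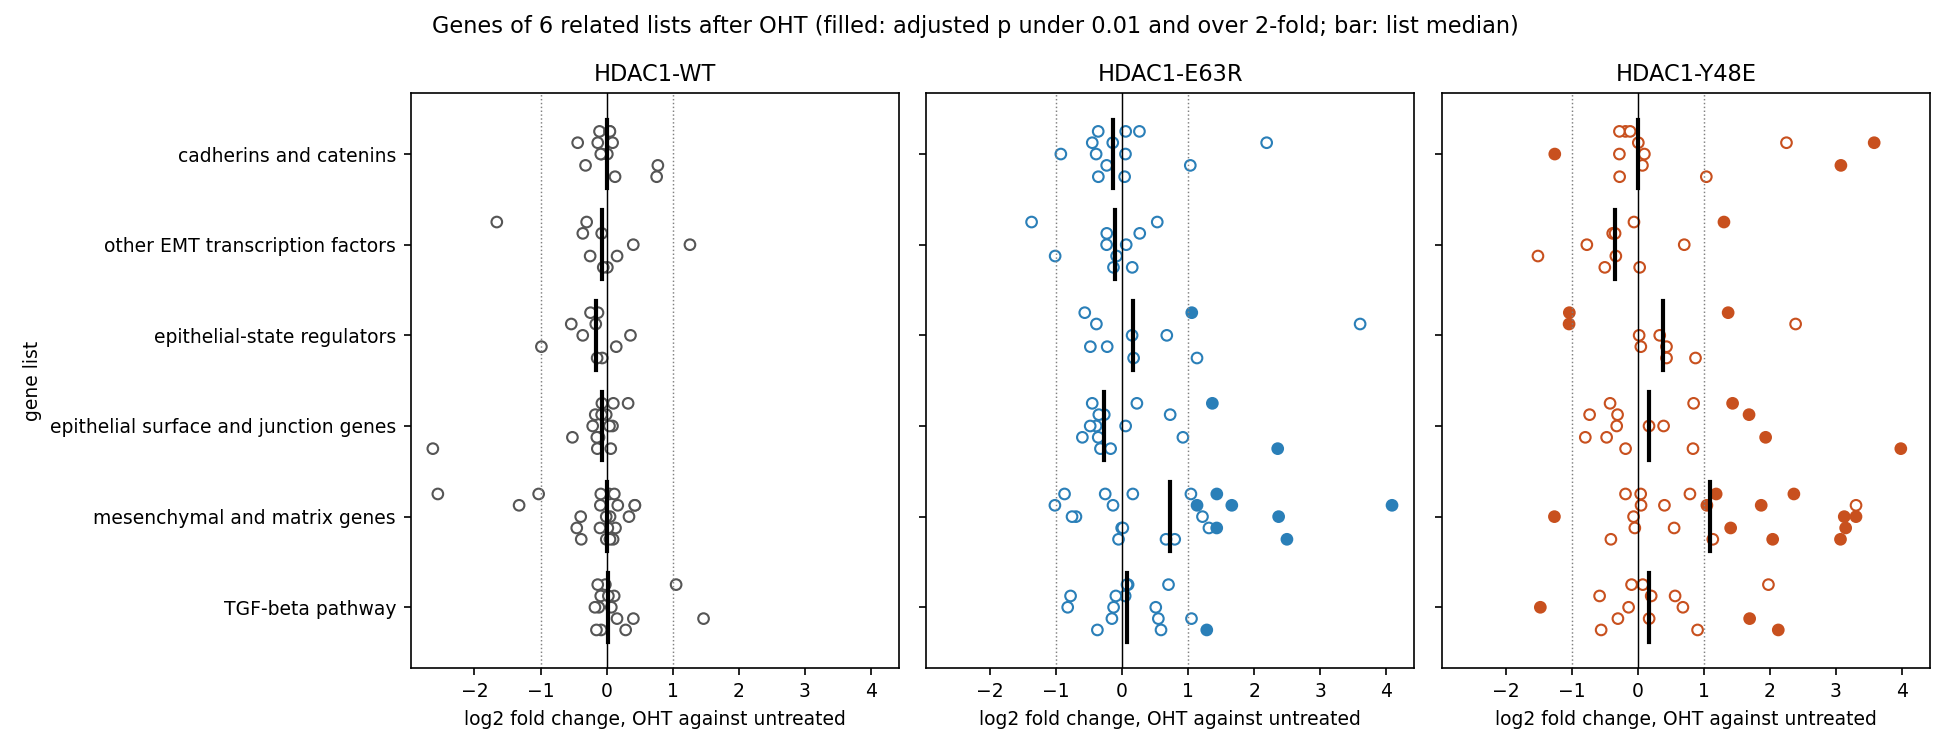
Log2 fold change after OHT of the tested genes of 6 related lists in the 3 lines, each point a gene, filled where called, with the list median as a black bar. The medians in HDAC1-WT lie near 0, and the mesenchymal and matrix genes have medians of 0.73 in HDAC1-E63R and 1.09 in HDAC1-Y48E.

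The gene-level counts of Hdac1 and Hdac2 changed by less than 2-fold after OHT in each line. The log2 fold changes of Hdac1 were -0.24, 0.22 and 0.14 in HDAC1-WT, HDAC1-E63R and HDAC1-Y48E, and those of Hdac2 were -0.66, -0.21 and -0.07. The HDAC1-E63R values without untreated replicate 3 were 0.25 and -0.07. None of these was called. In HDAC1-WT, Hdac2 (-0.66 ± 0.11, edgeR adjusted p = 0.0125) missed the p limit narrowly and ranked 12 by p among all tested genes. All its OHT libraries lay below the untreated ones there. In the mutant lines the Hdac2 groups overlapped, at -0.21 ± 0.11 in HDAC1-E63R (adjusted p = 0.194) and -0.07 ± 0.11 in HDAC1-Y48E (adjusted p = 0.649). The OHT effects of Hdac1 and Hdac2 did not pass the p limit in any test between lines. Untreated, Hdac1 was lower than in HDAC1-WT by 0.96 log2 units in HDAC1-E63R (difference -0.96 ± 0.09) and by 1.02 in HDAC1-Y48E (difference -1.02 ± 0.09), which passed the 2-fold limit in HDAC1-Y48E. Every line also expressed an HDAC1 construct, so the counts of Hdac1 may include its reads and cannot be assigned to the conditional allele. The exons that the lox sites flank are not stated in the sources used here. The counts of Hdac1 and Hdac2 therefore check neither the deletion nor the labels. The cause of the lower Hdac2 counts after OHT in HDAC1-WT was not tested.

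The genes whose pattern was most like that of each of the 10 were taken by Pearson's r of log2 CPM over the 18 libraries, which share their groups, as a description. For Fn1 they were Sun1 (r = 0.98), Nfic (0.98) and Sema5b (0.97), for Cdh1 they were Champ1 (0.96), Mtpn (0.96) and Frem2 (0.95), and for Cdh2 they were Rnf208 (0.93), Cul1 (0.92) and Gm12800 (0.92). For Epcam the closest was Spryd7 (0.89), for Vim Cks2 (0.86), for Twist1 Cnn3 (0.89), for Zeb1 Zmym3 (0.86), for Snai2 Usp40 (0.88), for Snai1 Slain1os (0.78) and for Zeb2 Fbxo27 (0.77). None of the 10 genes was among the 3 closest of another.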

How the data were processed

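The deposited values were raw read counts per gene symbol, 1 table per library. Per the labels, HISAT2 2.1.0, SAMtools 1.9, HTSeq and the mm10 build were named in the submitters' processing notes. The annotation and the strand setting are not given in the sources used here. The 5 summary entries without a gene, which made up 59.4% to 61.2% of each table's total, were removed. Genes were filtered with filterByExpr by group, scaled with TMM factors and fitted with edgeR 4.0.16 (R 4.3.3), using 1 quasi-likelihood model with 6 group means over 18 libraries, and p-values were Benjamini-Hochberg adjusted over the 18791 tested genes. The code was tested on simulated data. Calls required an adjusted p under 0.01 and over 2-fold change. Standard errors were derived from the F statistic. Exon lengths came from GENCODE M21 (GRCm38). No replicate pair agreed within sampling noise (smallest chi-square per degree of freedom 3.36). DESeq2 1.42.0, other scaling, filters, references and left-out libraries were tried as alternatives. Named were all 10 genes and, per related list and direction, at most the 3 called genes with the largest change, no overlap and 1 CPM in a group, plus fixed names (Cdh3, Ctnnb1, Grhl2, Esrp1, Ovol2, Snai3, Twist2, TGF-beta ligands), Hdac1, Hdac2 and the 3 genes closest in pattern. Some genes that this rule names are not reported here, but count in their lists. Rab25 and the marker genes were named after their values were seen. Genes and lists were chosen with earlier results of these data known. Intervals and floors cover counting error or the spread between libraries only.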

Additional observations from a re-analysis of the deposited data

Results flagged for a closer look

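The OHT effect of 1 of the 10 genes differed between lines by its own test, that of Fn1, which was lower in HDAC1-Y48E than in HDAC1-WT by -1.65 on the log2 scale (edgeR, adjusted p = 0.00122).

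Among the related genes named here, 3 had an OHT effect that was larger in HDAC1-E63R than in HDAC1-WT: Grhl2 by 1.30 (adjusted p = 0.00115), Cldn6 by 1.03 (7.58e-05) and Col1a1 by 2.40 (0.00186). Without untreated HDAC1-E63R replicate 3 these were 1.36, 1.04 and 2.27, all called. Against HDAC1-WT the OHT effect of HDAC1-Y48E was higher for Prrx2 by 1.61 (0.000468), Grhl2 by 1.61 (1.51e-05), Cldn6 by 2.05 (9.13e-10), Marveld2 by 1.69 (0.00266) and Tgfb1 by 1.84 (6.95e-06). It was also higher for Cnn1 by 3.01 (0.00956), Col1a1 by 2.97 (3.1e-05) and Cd44 by 3.07 (0.0044). It was lower for Cdh3 (-1.18, adjusted p = 0.000415), Snai3 (-1.17, 0.00192) and Ltbp3 (-1.36, 0.000756). Cldn6 also differed between the mutant lines, with an effect 1.02 higher in HDAC1-Y48E than in HDAC1-E63R (8.18e-05), or 1.01 higher without that replicate, still called. These comparisons have libraries in common, and groups of 3 libraries were too small to be examined for single outlying samples by a rule.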

How the results depend on the processing

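Of 497 alternative values 8 changed direction, 7 of them with OHT-treated HDAC1-WT as the reference, which adds the difference between the lines to the OHT effect. In HDAC1-E63R these were Cdh1 (0.56), Epcam (0.0778) and Zeb2 (0.51), and in HDAC1-Y48E Cdh1 (0.60), Vim (0.10), Zeb1 (-0.81) and Zeb2 (0.44). The other was Vim for HDAC1-Y48E minus HDAC1-E63R without a filter on low counts (-0.0012). None of the 4 values past the p limit changed direction in any alternative.

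The 1 gene called for HDAC1-Y48E minus HDAC1-WT became 2 (Cdh2 and Fn1) without a filter, with DESeq2 and at an adjusted p under 0.05. With OHT in HDAC1-Y48E it became 2 when the fit held that line's libraries alone, and with OHT-treated HDAC1-WT as the reference there were 2 in each mutant line. With 1 library left out, the count ranged from 0 to 1 for OHT in HDAC1-E63R and for HDAC1-E63R minus HDAC1-WT, each 1 (Fn1) without untreated HDAC1-E63R replicate 3, and from 1 to 2 for HDAC1-Y48E minus HDAC1-WT, where it was 2 without OHT-treated HDAC1-WT replicate 3. The cause was not tested.

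With 1 library left out, 26 of 80 gene values spanned 0. After OHT these were, in HDAC1-WT, Zeb2 (-0.92 to 0.0668) and Fn1 (-0.0643 to 0.0484), in HDAC1-E63R, Epcam (-0.25 to 0.15), Snai2 (-0.49 to 0.18) and Zeb1 (-0.43 to 0.15), and in HDAC1-Y48E, Snai2 (-0.31 to 0.51), Zeb1 (-0.0743 to 0.22) and Zeb2 (-0.85 to 0.72). For HDAC1-E63R minus HDAC1-WT they were Cdh1 (-0.10 to 0.0473), Epcam (-0.17 to 0.22) and Vim (-0.14 to 0.086), and for HDAC1-Y48E minus HDAC1-WT Cdh1 (-0.0166 to 0.0743) and Zeb2 (-0.59 to 0.98). For HDAC1-Y48E minus HDAC1-E63R they were Cdh1 (-0.0177 to 0.13), Epcam (-0.0288 to 0.37), Vim (-0.14 to 0.087), Snai2 (-0.12 to 0.72), Zeb1 (-0.11 to 0.47) and Twist1 (-0.12 to 0.46). Untreated, they were Epcam (-0.14 to 0.25), Vim (-0.11 to 0.12), Snai1 (-0.13 to 0.32) and Zeb1 (-0.22 to 0.36) in HDAC1-E63R, and Snai1 (-0.31 to 0.13), Zeb2 (-0.54 to 0.78) and Twist1 (-0.10 to 0.17) in HDAC1-Y48E.

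Replicate numbers are shared between groups. Over all tested genes, the untreated and OHT libraries of a line with the same number did not deviate together (correlation of deviations from -0.02 to 0.04). The numbers were therefore not taken as a pairing. Single genes could still follow them. Snai2 was lowest in replicate 3 of every group, and Zeb2 was highest there in every group but untreated HDAC1-E63R. Whether these patterns go beyond the spread between libraries was not tested. With the replicate number as a block, Fn1 was at -1.66 after OHT in HDAC1-Y48E and at -1.64 for HDAC1-Y48E minus HDAC1-WT, and 1 gene was called in each, as without the block. Counts near the floor limit what can be said of Cdh2, Snai2 and Zeb2.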
